A study of Mus musculus with 6 samples.

Results

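The transcription factors that build the ventral telencephalon and its interneurons were taken as 9 genes, *Dlx1*, *Dlx2*, *Dlx5*, *Dlx6*, *Gsx1*, *Gsx2*, *Nkx2-1*, *Lhx6* and *Lhx8*, and their members in the data were the Gli3 binding sites around them. A site belonged to a gene when its midpoint lay inside the gene body or within 100 kb of the transcription start site (TSS) of the gene. The neighbouring pairs *Dlx1/Dlx2* and *Dlx5/Dlx6* were each read as a single locus, which gave 7 loci. Of the 4114 sites in the list, 3 belonged to these genes, 2 of them at *Gsx2* and 1 at *Nkx2-1*. The other 7 genes had none. The sites came from chromatin immunoprecipitation followed by sequencing (ChIP-seq) of cortices dissected from wild-type mouse embryos at embryonic day 15, with 3 Gli3 ChIP libraries and 3 libraries of input DNA, made from chromatin without the antibody step. All libraries were wild type, so that no genotype or treatment was compared. The list joins the replicates and gives a position without a height, so that no error between replicates can be given, and the read depth is unknown. The cortices were whole tissue, and a site carried by few cells cannot be told apart from one bound weakly in many. Expression was not measured in these libraries, so that the makeup of the tissue could not be checked against marker genes.

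Gli3 is the transcription factor of the Sonic hedgehog (Shh) pathway that acts mainly as a repressor when Shh is absent, and in the telencephalon it holds ventral programs in check on the dorsal side. The 9 genes encode homeodomain proteins. *Nkx2-1* sets the identity of the medial ganglionic eminence, and *Lhx6* and *Lhx8* act in its descendants, cortical interneurons and cholinergic neurons. *Gsx1* and *Gsx2* act in progenitors of the ganglionic eminences, *Gsx2* foremost in the lateral one. The Dlx genes follow in the subventricular zone and in migrating GABAergic neurons. The comparison made here asks how many of these genes have a Gli3 site nearby in the embryonic cortex, the tissue in which cortical progenitors later begin to form olfactory bulb interneurons.

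The sequence that Gli proteins recognise has the most conserved bases GACCACCCA, called the GLI core below. Exact copies on either strand were located in the 7 loci, and 12 were found. The copy inside a Gli3 site is shown here, followed for each locus that had a copy by the one closest to a listed TSS, so that the copy within a site can be set against those outside. Each is read 5′ to 3′ in the direction of the core from the GRCm38 sequence (mm10), and capitals mark the core.
*Gsx2* locus, inside a Gli3 site, chr5:74999123-74999131, minus strand: cctctgcaaaGACCACCCActtttggagc
*Dlx1/Dlx2* locus, chr2:71538543-71538551, plus strand: tgaggaaattGACCACCCAagacaaattt
*Gsx1* locus, chr5:147125000-147125008, minus strand: gtgggcttaaGACCACCCAgtcagcgccc
*Gsx2* locus, chr5:75149834-75149842, plus strand: tcggccccgaGACCACCCAggacccgggg
*Nkx2-1* locus, chr12:56606760-56606768, plus strand: actcatacaaGACCACCCActcagaatac
*Lhx6* locus, chr2:36092891-36092899, minus strand: ttcactcctgGACCACCCAgggccaacat
*Lhx8* locus, chr3:154342216-154342224, minus strand: agagaatcaaGACCACCCAtgtattactc

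Gli3 sites were present at 2 of the 9 genes, or 22.2% (95% Wilson interval 6.32 to 54.7%), and at 2 of the 7 loci. Among the 21938 protein-coding genes on chromosomes 1 to 19, X and Y, 37.4% had a site by the same rule. The share at the listed genes was the lower of the pair, and its interval included the share of all genes. *Gsx2* was the listed gene with the most sites, and 2913 protein-coding genes, 13.3% of all, had at least as many. Among the genes with the highest numbers were *Gm20388* with 47 sites, *Gse1* with 22, and *Pdia4* and *Zfp398* with 14 each. No site covered the gene-level TSS of any of the 9 genes, a share of 0% for which the upper bound of the Wilson interval was 29.9%, whereas 6.22% of all protein-coding genes had one. The intervals cover counting error over genes only, and neighbouring genes can share a site.

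**Figure D1:**
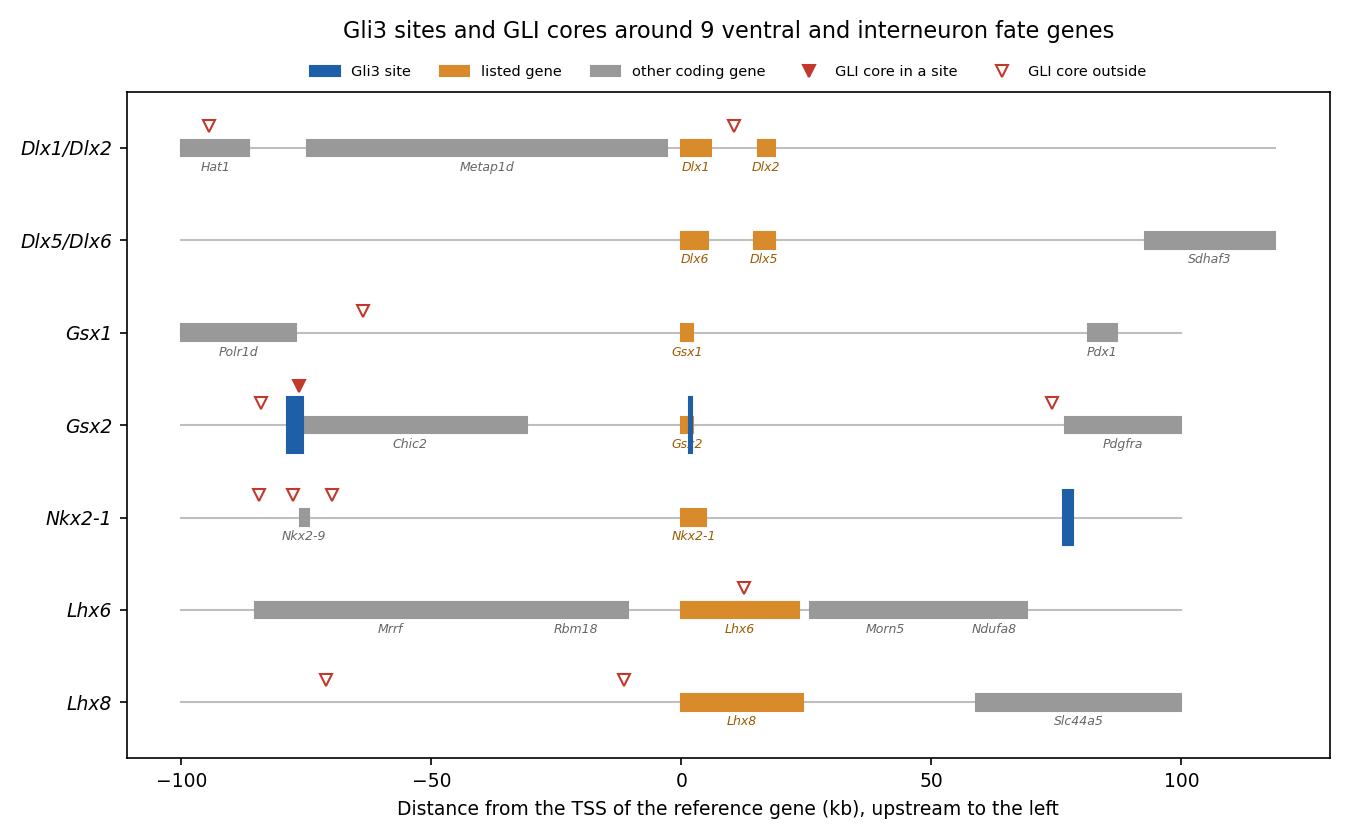
Map of the 7 loci, with the distance from the TSS of the reference gene in kb on the horizontal axis (*Dlx1* and *Dlx6* for the pairs) and upstream to the left. Blue boxes are Gli3 sites, orange boxes listed genes, grey boxes other protein-coding genes, and triangles GLI cores, filled for the 1 core inside a site and open for the other 11. The 3 sites fall in the *Gsx2* and *Nkx2-1* rows alone.

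*Gsx2* (ENSMUSG00000035946.7) lies on the plus strand of chromosome 5 from 75075601 to 75077893, and one of its sites is within the gene. This site was 627 bp long, from 75077059 to 75077685, and its midpoint was 1771 bp downstream of the TSS. It began 1458 bp after the TSS and so did not reach it. All 627 bp were exonic, in exon 2, the last exon of the gene, and all were annotated as UTR in at least 1 transcript. Of them, 245 bp were also coding sequence in at least 1 transcript. It was narrow for this list, at percentile 4.24 of the widths. Its GC content of 49.4% was at percentile 37.9, and its ratio of observed to expected CpG, 0.626, was at percentile 80.1. The site held no GLI core, not even with 1 mismatch, and no match to any of the other motifs searched. By the definition of a promoter used here, a midpoint within 2 kb of any annotated TSS on either side, it was the only 1 of the 3 sites at a promoter. The share of all sites at promoters is not given here, so whether 1 of 3 is few or many was not judged.

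The other *Gsx2* site lay at the far side of the neighbouring gene. It was 3201 bp long, from 74996756 to 74999956, at percentile 79.8 of the widths, and its midpoint was 77.2 kb upstream of the *Gsx2* TSS. Of its length, 1969 bp were in the 3′ UTR of *Chic2*, in exon 6, the last exon of that minus-strand gene, and the remainder was beyond the end of *Chic2*. The nearest protein-coding TSS was that of *Chic2*, 46.4 kb away, so that the site is closer to *Chic2* than to *Gsx2* by this measure. The GC content of 43.3% was at percentile 9.58 of all sites. This was the site with the exact GLI core, from 74999123 to 74999131, in the 3′ UTR of *Chic2* and 771 bp from the midpoint of the site. A further core from 74991473 to 74991481 lay outside, 6.88 kb from the midpoint of the site. Between the *Gsx2* sites no other site was listed, and 77.1 kb separated them.

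*Nkx2-1* (ENSMUSG00000001496.15) is transcribed from the minus strand of chromosome 12, between 56531958 and 56536908. Its single site was 1903 bp long, from 56458614 to 56460516, with a midpoint 77343 bp downstream of the TSS. The site was intergenic, and *Nkx2-1* was the gene with the nearest protein-coding TSS. The nearest TSS of any annotated transcript was that of the noncoding gene *Sfta3-ps*, 33.8 kb away. The site was isolated, with the next sites on the chromosome 2093 kb and 769.4 kb from its edges. Its width was at percentile 47.0 and its GC content of 43.5% at percentile 10.2. There was no exact GLI core in it, whereas 3 cores lay on the other side of *Nkx2-1*, from 69.9 to 84.5 kb upstream of the TSS and outside any site. These 3 cores surround *Nkx2-9*, another NK2 homeodomain gene, and the closest of them was 1.36 kb from its TSS.

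The site downstream of *Nkx2-1* held 1 match to the core with 1 mismatch, GGCCACCCA, a difference from the core of A2G counted from the 5′ end of the core. It was on the minus strand from 56459096 to 56459104, 465 bp from the midpoint. The 300 bases around it, chr12:56458950-56459249 on the plus strand of GRCm38, are shown because this is the only Gli3 site of *Nkx2-1*. Capitals mark the mismatched core, which reads in reverse complement on this strand, and the GC content of the stretch was 46.7%.
Site downstream of *Nkx2-1*: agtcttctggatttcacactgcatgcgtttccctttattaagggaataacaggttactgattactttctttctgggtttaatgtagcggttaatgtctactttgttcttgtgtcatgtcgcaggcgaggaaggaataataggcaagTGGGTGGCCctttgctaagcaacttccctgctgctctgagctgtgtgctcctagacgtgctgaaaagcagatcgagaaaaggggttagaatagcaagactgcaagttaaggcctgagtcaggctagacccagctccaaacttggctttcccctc

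The motif content of the 3 sites was described beside that of the 4099 sites on assembled chromosomes. An exact GLI core was in 1 of the 3 sites and in 12.2% of all sites (95% Wilson interval 11.3 to 13.3%). With 1 mismatch allowed it was in 2 of 3 and in 64.7% of all sites. The homeodomain motif TAATTA, which Dlx and Lhx proteins can bind, was in 2 of 3 and in 38.2% of all sites. The *Gsx2* site next to *Chic2* had 2 copies, one of them 38.5 bp from its midpoint by the centre of the motif, and the site downstream of *Nkx2-1* had 1. The bHLH motif CAGCTG occurred in 1 of the 3 sites, with 2 copies in the site next to *Chic2*, and in 68.6% of all sites. The Nkx2-1 motif TCAAGTG was also present only there, with 1 copy, and in 23.3% of all sites. The SP motif GGGCGGGG occurred once, in the site downstream of *Nkx2-1*, and in 33.8% of all sites. All motifs were searched on both strands, and CAGCTG and TAATTA are their own reverse complements. For each site, 2 flanking regions of its own length were also searched, one on each side, each starting 1 site length away from the edge. Together, the flanks of the site next to *Chic2* held 1 GLI core, the one 6.88 kb from its midpoint, with 4 copies of TAATTA and 6 of CAGCTG. Those of the *Nkx2-1* site held 3 copies of TAATTA, 2 of CAGCTG and 1 of the Nkx2-1 motif, and those of the site within *Gsx2* held 1 copy each of the bHLH, Nkx2-1 and SP motifs. A share over 3 sites has a wide interval (for 1 of 3, 6.15 to 79.2%), and none of these shares could be told apart from that of all sites. A match is a word in the sequence and does not show that a factor bound it.

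**Figure D2:**
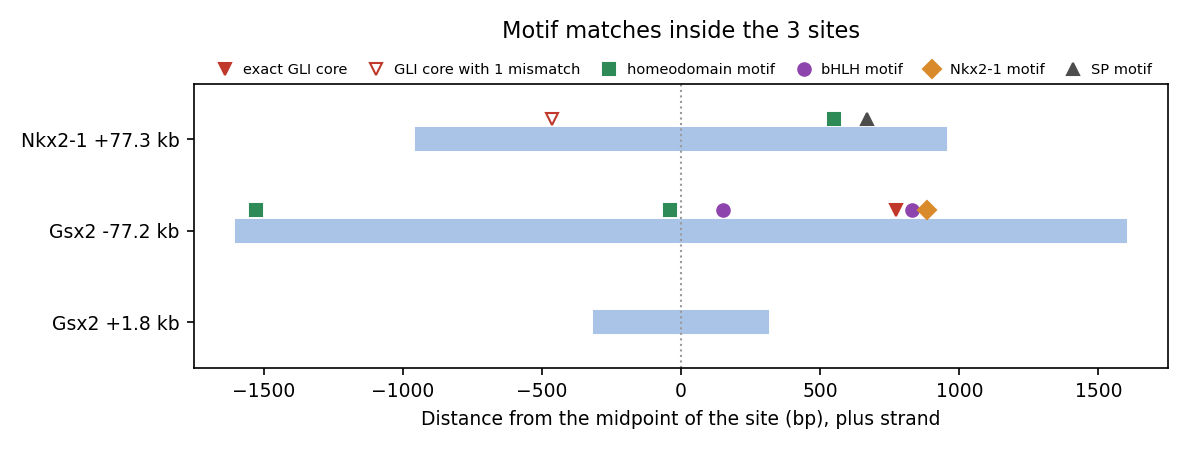
Motif matches in the 3 sites, drawn as bars to scale, with the distance from the midpoint of the site in bp along the horizontal axis and symbols for each kind of motif. The exact GLI core is 771 bp from the midpoint of the *Gsx2* site next to *Chic2*, the mismatched core is 465 bp from that of the *Nkx2-1* site, and the site within *Gsx2* carries no symbol.

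**Figure D3:**
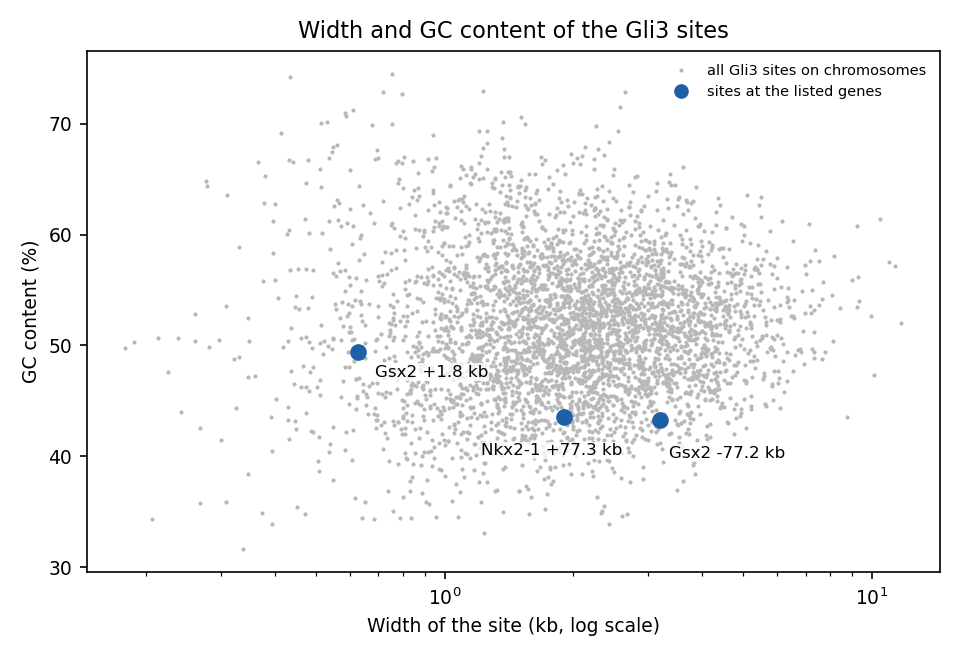
Width in kb on a log axis against GC content in percent for the 4099 sites on assembled chromosomes (grey) and the 3 sites at the listed genes (blue, labelled with the distance to the TSS). The site within *Gsx2* is narrower than most, at 627 bp, and the other sites are GC-poor, at 43.3% and 43.5% against a median of 51.4%.

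The median width of the 3 sites was 1903 bp, beside 1989 bp for all sites in the list. The loci together spanned 1.44 Mb, which gave 2.09 sites per Mb against 1.50 per Mb over the assembled chromosomes. The exact Poisson 95% interval of the density in the loci, 0.430 to 6.10 per Mb, covers counting error only and included the value of the assembled chromosomes.

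The Dlx genes stood at the other end of the range. *Dlx1* (ENSMUSG00000041911.3; chromosome 2, 71528113 to 71533981, plus strand) and *Dlx2* (ENSMUSG00000023391.8; 71543408 to 71546754, minus strand) face each other with 9.43 kb between them. The nearest Gli3 site to either was the same one, from 70566667 to 70568815, with a midpoint 960.4 kb from the *Dlx1* TSS and 979.0 kb from the *Dlx2* TSS. There were 10 protein-coding TSSs between it and *Dlx1*. It lay 14.7 kb from the TSS of *Gad1*, which encodes an enzyme of GABA synthesis, and held 1 GLI core. On the other side of the pair the nearest site was 1101 kb from the *Dlx1* TSS.

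*Dlx5* (ENSMUSG00000029755.10; chromosome 6, 6877805 to 6882085, minus strand) and *Dlx6* (ENSMUSG00000029754.13; 6863334 to 6868568, plus strand) have the same arrangement, 9.24 kb apart. Their nearest site was again shared, 699.6 kb from the *Dlx6* TSS and 718.4 kb from the *Dlx5* TSS. It was wide, 8748 bp from 6159326 to 6168073, held 2 GLI cores, and was nearest to *Slc25a13*, a mitochondrial carrier gene. Within 500 kb, therefore, none of the 4 Dlx genes had a listed site, and each had 2 within 1 Mb.

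*Gsx1* (ENSMUSG00000053129.5; chromosome 5, 147188696 to 147190947, plus strand), the paralog of *Gsx2*, had no site within 500 kb either. Its nearest site, 869 bp long, was 778.0 kb upstream, with 15 protein-coding TSSs in between, and *Wasf3*, an actin regulator, was the nearest gene to it. The difference between the Gsx genes was thus 1.77 against 778.0 kb to the nearest site and 2 against 0 sites in the window.

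Both LIM homeodomain genes lacked a site within 100 kb. For *Lhx6* (ENSMUSG00000026890.19; chromosome 2, 36081953 to 36105408, minus strand) the nearest was just beyond the window, 125.9 kb downstream. That site was 1427 bp long, from 35978782 to 35980208, had a GC content of 65.2% and no GLI core, and its midpoint was 418 bp from the TSS of *Ttll11*, a tubulin-modifying enzyme gene. *Lhx6* had 3 sites within 500 kb. For *Lhx8* (ENSMUSG00000096225.7; chromosome 3, 154306294 to 154330659, minus strand) the nearest site was 448.6 kb upstream, 1121 bp long and without a GLI core, and it was the only one within 1 Mb.

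Ordered by the distance to the nearest site, the genes ran *Gsx2*, *Nkx2-1*, *Lhx6*, *Lhx8*, *Dlx6*, *Dlx5*, *Gsx1*, *Dlx1* and *Dlx2*. The median distance was 699.6 kb, and over all protein-coding genes it was 177.0 kb. *Gsx2* was at percentile 6.75 of all genes and *Nkx2-1* at percentile 31.4, while *Dlx2* was at percentile 87.9. The nearest site was more than 500 kb away for 5 of the 9 genes (55.6%, 95% Wilson interval 26.7 to 81.1%), and for 24.4% of all protein-coding genes. These 5 genes make up 3 of the 7 loci, because each Dlx pair shares its nearest site, so that they are fewer independent observations than the count of genes. The interval lay above the share of all protein-coding genes, but it takes each gene as independent and is therefore too narrow. For that reason it was not read as setting the listed genes apart from all protein-coding genes. The positions have no replicate error, and neighbours in the order were not tested against each other.

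**Figure D4:**
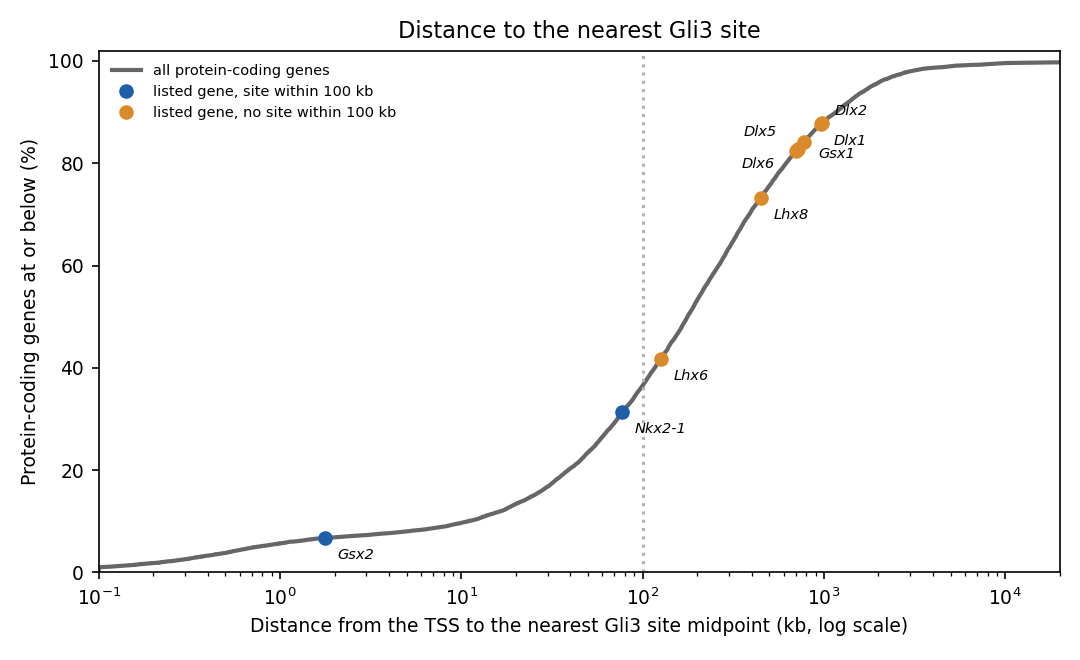
Cumulative share of the protein-coding genes (vertical axis, %) by the distance from the TSS to the nearest Gli3 site midpoint (horizontal axis, kb, log scale), with the 9 listed genes as points on the curve and a dotted line at 100 kb. *Gsx2* and *Nkx2-1* are left of the line, and the Dlx genes and *Gsx1* are between 699.6 and 979.0 kb.

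Exact copies of the GLI core were available in most of these loci. At least 1 was in the window of 7 of the 9 genes (77.8%, 95% Wilson interval 45.3 to 93.7%), which is close to the 77.6% of all protein-coding genes. *Gsx2* and *Nkx2-1* had 3 each, *Dlx1* and *Lhx8* 2 each, *Dlx2*, *Gsx1* and *Lhx6* 1 each, and *Dlx5* and *Dlx6* none. The core of *Dlx2*, counted for *Dlx1* as well, was in the stretch between the pair, 8.21 kb downstream of the *Dlx2* TSS. That of *Lhx6* was in an intron, 12.5 kb downstream of the TSS, and the closest at *Lhx8* was intergenic, 11.6 kb upstream. The *Gsx2* core shown from outside a site was 74.2 kb downstream of the *Gsx2* TSS and 2.45 kb from the TSS of *Pdgfra*. Of the 12 cores in the loci 1 lay in a Gli3 site, or 8.33% (95% Wilson interval 1.49 to 35.4%). On chromosomes 1 to 19, X and Y, 18532 copies of the core were found, and 3.19% of them lay inside a Gli3 site. Both intervals included the value of the genome. The 6.80 cores per Mb of the genome compare with 8.35 per Mb of the loci.

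Properties of the windows were measured alongside. Soft-masked repeats made up 20.5 to 32.0% of the windows of the 9 genes, beside a median of 30.7% over all protein-coding genes, and no window had an assembly gap. The number of other protein-coding TSSs within 100 kb, the partner of a Dlx pair included, ranged from 0 at *Lhx8* to 4 at *Lhx6*, with a median of 2, and over all protein-coding genes the median was 3. The *Dlx1/Dlx2* window held *Metap1d*, that of *Dlx5/Dlx6* held *Sdhaf3*, that of *Gsx1* held *Pdx1*, and that of *Gsx2* held *Chic2* and *Pdgfra*, a receptor gene of oligodendrocyte precursors. The part of these properties in the presence of sites was not tested.

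The promoters of the listed genes, 250 bases before to 50 after the TSS, were taken from RefSeq (GRCm38), in which 7 of the 9 were matched by symbol, all but *Dlx5* and *Dlx6*. The RefSeq start of *Dlx1* was 1332 bp from the gene-level TSS used elsewhere, that of *Lhx8* 99 bp, and the others were identical. GC content ranged from 47.0% at *Lhx8* to 69.3% at *Dlx1*, with a median of 63.0%. Over the 16521 promoters matched the median was 57%, and over the 1072 of them whose gene had a Gli3 site on the TSS it was 64.3%. The ratio of observed to expected CpG was highest at *Dlx2*, 0.898, and lowest at *Lhx8*, 0.241, with medians of 0.579 for the listed genes, 0.602 for all and 0.800 where a site covered the TSS. None of the 7 promoters held a GLI core, which 0.188% of all promoters did. *Gsx2* had 1 copy of GGGCGGGG, present in 24.7% of all promoters, and *Lhx6* had 2 of CAGCTG, present in 15.2%.

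Other genes of the ventral and interneuron programs were counted by the same rule. Of 13 ventral progenitor factors, 6 had a site in the gene body or within 100 kb (46.2%, 95% Wilson interval 23.2 to 70.9%), and none had one on the TSS. *Olig2*, the oligodendrocyte and ventral progenitor factor, had the most, 3. Of 16 interneuron differentiation factors, 8 had a site (50%, 28.0 to 72.0%). A site covered the TSS of *Sox6*, *Maf* and *Nr2f1*, 3 of the 16 (18.75%), beside 6.22% of all protein-coding genes. No interval was computed for this share on the TSS. *Sox6*, which acts downstream of *Lhx6*, had 3 sites in all. Of 12 genes of the GABAergic phenotype, 5 had a site (41.7%, 19.3 to 68.0%), and *Gad1* had the most, 4. Of 15 paralogs of the listed genes, 6 had a site (40.0%, 19.8 to 64.3%), with *Nkx2-2* and *Lhx2* the highest at 2 sites each. None of the GABAergic genes or the paralogs had a site on the TSS. The intervals of these lists are for a site in the gene body or within 100 kb. All of them included the share of all protein-coding genes and overlapped that of the 9 listed genes. No list was shown to differ from another. *Nkx2-2* was in both the ventral progenitor and the paralog list. Neighbours such as *Dlx3* and *Dlx4* were counted as separate genes, so that the counts are not all independent.

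**Figure D5:**
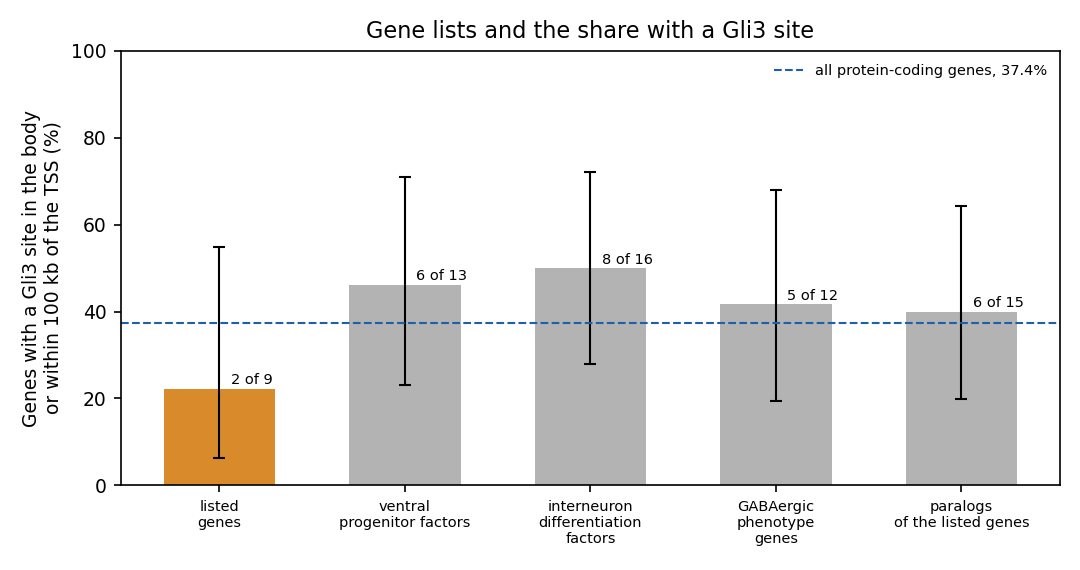
Share of genes (vertical axis, %) with a Gli3 site in the gene body or within 100 kb of the TSS for the listed genes (orange) and the other lists (grey), with 95% Wilson intervals as error bars and the share of all protein-coding genes, 37.4%, as a dashed line. Every interval crosses the dashed line, and the listed genes have the lowest bar, 2 of 9.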

How the data were processed

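Cortices of wild-type embryos were used for 3 Gli3 ChIP and 3 input libraries. The authors mapped paired reads, 85 bases from each end by the heading of the list, with Bowtie2 to mm10 after a repeat filter and retained the peaks that an irreproducible discovery rate (IDR) analysis over replicates placed in its optimal set. The labels also name SAMtools and MACS2, without versions. The deposited unit is a genomic position: each of the 4114 sites has a chromosome, start, end and name, with no count, score or p-value. Thresholds are not given in the sources used here. Starts were converted to 1-based coordinates. Genes came from GENCODE M21 and sequence from GRCm38 (RefSeq). Sites were assigned by midpoint. All 9 genes were named, with the host and nearest genes of their sites, for each gene list the members with a site on the TSS or with the most sites, and up to 5 genes with at least as many sites as the listed gene with the most; the genes nearest to distant sites and the neighbours in the windows were named after the values were seen. A few genes within this rule are not reported. Members and lists were chosen with earlier results of these data known. Shares of the listed genes and their sites have 95% Wilson intervals. The planned lists have them for a site in the gene body or within 100 kb only, and the list added after the data were seen has none. No test was run, because the replicates were joined in 1 list. Motif search and intervals were tested on simulated data. The work used python 3.11.15, numpy 2.4.6, scipy 1.17.1 and matplotlib.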

Additional observations from a re-analysis of the deposited data

How the results depend on the processing

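The count of sites moved most with the distance. With 50 kb in place of 100 kb there was 1 site, at 1 gene, *Gsx2* (25.2% of all protein-coding genes then had a site), and with 200 kb there were 4 sites at 3 genes (53.6% of all), the addition being the site at *Ttll11* near *Lhx6*. Keeping only sites whose nearest protein-coding TSS is a listed gene left 2 sites at 2 genes. Counting a midpoint within 2 kb of the TSS in place of a site on the TSS gave 1 gene, *Gsx2* (6.88% of all protein-coding genes). The share of the 3 sites at promoters fell to 0% with 2 kb upstream only and to 0% with 1 kb on either side. The share with an exact GLI core fell to 0% in the central 200 bp and to 0% in the 1 kb around the midpoint, since the core is 771 bp from the midpoint. The median width was 627 bp with 50 kb, the width of the single site left, and 1665 bp with 200 kb, against 1903 bp. The other settings kept counts within 1.5 times and shares within the interval. No paired analysis was possible because the replicates were joined in 1 list without values, and for the same reason no replicate could be left out and no stricter threshold applied. A gene without a listed site is a gene without a peak past the authors' threshold at an unknown depth.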

Other observations

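A list of 12 genes of dorsal telencephalic progenitors and their early descendants was added after the data had been seen, so that its count is a description. In it, 9 genes had a Gli3 site in the gene body or within 100 kb of the TSS (75%), beside 37.4% of all protein-coding genes. No interval is given, because it would not cover the choice of the list, and a difference from all genes was not tested. The median distance to the nearest site was 20.5 kb, beside 177.0 kb over all protein-coding genes. *Sox2*, a neural stem cell factor, had the most sites, 4. *Emx2*, *Tbr1* and *Gli3* had none.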
